A study of Mus musculus with 9 samples.

Results

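Short coding sequences are taken here as those of fewer than 700 bases in the deposited table of part lengths. Of the 22442 genes in the table of coding sequence (CDS) counts, 4985 had a CDS below that limit, and 1690 of them held at least 1 count in any of the 9 libraries. These 1690 short coding sequences are described below. They ran from 56 to 699 bases, with a median of 516. A symbol was given by the deposited tables for 828 of them, and the other 862 carry an identifier alone. Of the lengths, 78.9% were multiples of 3, so not every one is that of a single complete reading frame.

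The limit of 700 bases is a round number. Antkmt, Med7 and Tk1, each of 699 bases, lay just inside it, and Oaz1 at 701 and Nucks1 and Rab5c at 702 bases lay just outside. Mean CDS levels in the immunoprecipitates were 59.3, 17.8 and 38.2 CPM (counts per 1000000 CDS counts, scaled by TMM) inside the limit. They were 48, 63.0 and 16.5 CPM outside it.

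Chtop, the chromatin target of the arginine methyltransferase Prmt1, works with the TREX complex, which loads export receptors onto mRNA in the nucleus. In iCLIP, ultraviolet light fixes a protein to the RNA it touches, the protein is recovered with an antibody, and the attached RNA fragments are sequenced. Genes with short coding sequences include those for ribosomal proteins, histones, small GTPases, the peptidyl-prolyl isomerase Ppia and ferritin. Many of them are among the most abundant mRNAs of a growing cell. A short CDS also offers few bases on which a fragment can fall, so raw counts and counts per base are both given.

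N2a cells are a mouse neuroblastoma line. Derivatives of it (N2a Flp-In rtTA) expressed FLAG-tagged Chtop cDNA, either with exon 5 or without it, under doxycycline at 2 µg/mL for 24 hours. No change to the cells' own Chtop gene is named in the labels. Cells were crosslinked at 0.15 J/cm2, and each isoform gave 3 anti-FLAG libraries from cultures harvested on separate days. Size-matched inputs, 3 in number, were cut from the gel at the same height out of 2% of the lysate, with no antibody step. Input 1 came from the line without exon 5, input 2 from the line with exon 5 and input 3 from a line making FLAG-GFP, all induced and crosslinked alike.

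The libraries held 416001 to 1270224 CDS counts in the immunoprecipitates and 34296 to 81283 in the inputs. A short CDS had a count in 568 to 983 of 1690 cases per immunoprecipitate and in 115 to 428 per input. Among coding sequences tested below, log CPM correlated across genes at 0.668 to 0.787 between immunoprecipitates, and across the short ones alone at 0.181 to 0.454. Among the short ones the inputs correlated with the immunoprecipitates at −0.14 to 0.070 and with each other at 0.216 to 0.356. Genes are not independent replicates, and these values share each library's depth. All 12 neuroblastoma markers that the tables name were counted over the whole gene in the immunoprecipitates, with Hand2, a transcription factor of sympathetic neurons and itself a short CDS, at 2127 counts. Of 6 fibroblast markers, 3 were counted, with 10 counts in all, and Col1a2, Col3a1 and Dcn were at 0.

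Short coding sequences held a small part of the CDS counts bound to Chtop and a larger part of those in the inputs. With exon 5 they took 1.62%, 1.45% and 1.26% of the CDS counts of the 3 libraries. Without exon 5 they took 1.64%, 1.58% and 1.41%. In the inputs the shares were 8.68%, 7.83% and 6.09%. The means were 1.44% ± 0.177, 1.54% ± 0.119 and 7.53% ± 1.32 (SD, n = 3 libraries each), so the isoforms overlapped each other and neither overlapped the inputs. Counting error alone was small beside these gaps, since the widest Wilson 95% interval, that of input 3, ran from 5.84% to 6.35%. These sequences made up 3.65% of the CDS bases of all counted genes, so their share was below that of their length in every immunoprecipitate and above it in every input.

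Per base, short coding sequences were the sparsest class of CDS with Chtop and the densest in the inputs. Raw counts per kb were 8.17 to 21.5 in the immunoprecipitates and 2.5 to 7.63 in the inputs. Per 1000000 CDS counts, the density was 17.3 ± 2.12 counts per kb with exon 5, 18.5 ± 1.43 without and 90.3 ± 15.8 in the inputs (SD, n = 3 each), and the mean of the inputs was 5.05 times that of the 6 immunoprecipitates. For the 9309 coding sequences of 700 to 5000 bases the same density was 35.8 with Chtop and 41.6 in the inputs. For the 602 above 5000 bases it was 78.0 and 43.2, which is 1.81 times higher with Chtop. These densities use plain library totals, so no scaling factor enters them. Which of crosslinking, gel size range, mRNA abundance or fragment mapping sets them was not tested.

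**Figure D1:**
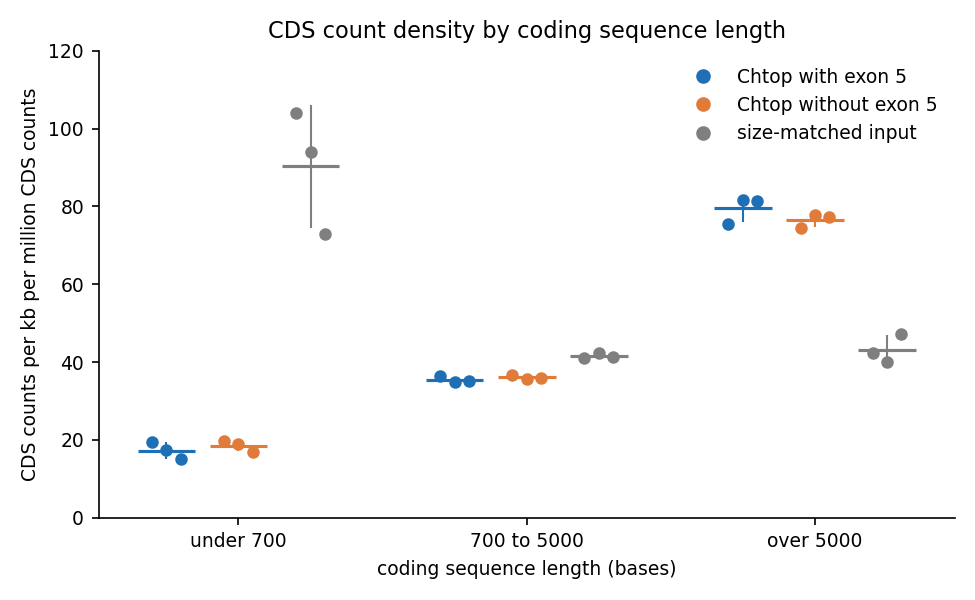
CDS counts per kb of coding sequence per 1000000 CDS counts (y axis, linear) for coding sequences under 700, of 700 to 5000 and over 5000 bases (x axis). Points are single libraries, horizontal lines are means and vertical lines ± 1 SD over 3 libraries; under 700 bases the immunoprecipitates sit between 15.1 and 19.6 and the inputs between 73.0 and 104, and over 5000 bases the inputs lie below.

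A few rows without a symbol weighed heavily in the inputs. Rows with no symbol held 34.9% to 38.8% of the short CDS counts in the immunoprecipitates and 60.8% to 62.6% in the inputs. The 10 highest short coding sequences held 8.86% to 16.2% of those counts with Chtop and 32.7% to 39.2% in the inputs. One such row, ENSMUSG00000064357.1 of 678 bases, had 141, 34 and 93 counts with exon 5, 66, 116 and 212 without, and 394, 690 and 224 in the far shallower inputs. Another, ENSMUSG00000064368.1 of 516 bases, had 12 to 46 counts in each immunoprecipitate and 232, 303 and 32 in the inputs. Both were lower with Chtop in 6 of 6 libraries, with edgeR log2 fold changes of −4.53 (SE 0.54) and −5.71 (SE 0.69) and an adjusted p of 0.0014 each. A list of mitochondrially encoded genes matched 0 rows by symbol. Whether these or other unnamed rows are mitochondrially encoded, and how much of the input share that makes up, was therefore not tested. With only rows that carry a symbol, short coding sequences held 0.924% of CDS counts with exon 5, 0.968% without and 2.89% in the inputs, so the direction did not rest on the unnamed rows.

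Within the short class the shortest sequences differed most from the inputs. Below 300 bases the density per base with Chtop was 0.0829 times that of the inputs, from 300 to 499 bases 0.223 times and from 500 to 699 bases 0.219 times. Past the limit the ratio rose to 0.375 at 700 to 999 bases, 0.602 at 1000 to 1999 and 1.16 at 2000 to 4999 bases. Among tested sequences the median log2 fold change of both isoforms over input was −3.58 below 300 bases (15 tested, 6 lower and 0 higher). It was −0.46 at 300 to 499 bases (79 tested), −0.34 at 500 to 699 (159 tested) and 0.19 at 700 to 999 bases (428 tested). With sequences at 0 in a whole group set at their bound, the last 3 became −0.61, −0.44 and −0.25. The bin below 300 bases holds under 20 tested sequences. The density ratio was nearly the same in both bins from 300 to 699 bases and higher past the limit, where input density fell from 79.6 to 46.5 counts per kb and that with Chtop was 17.4 on both sides.

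**Figure D2:**
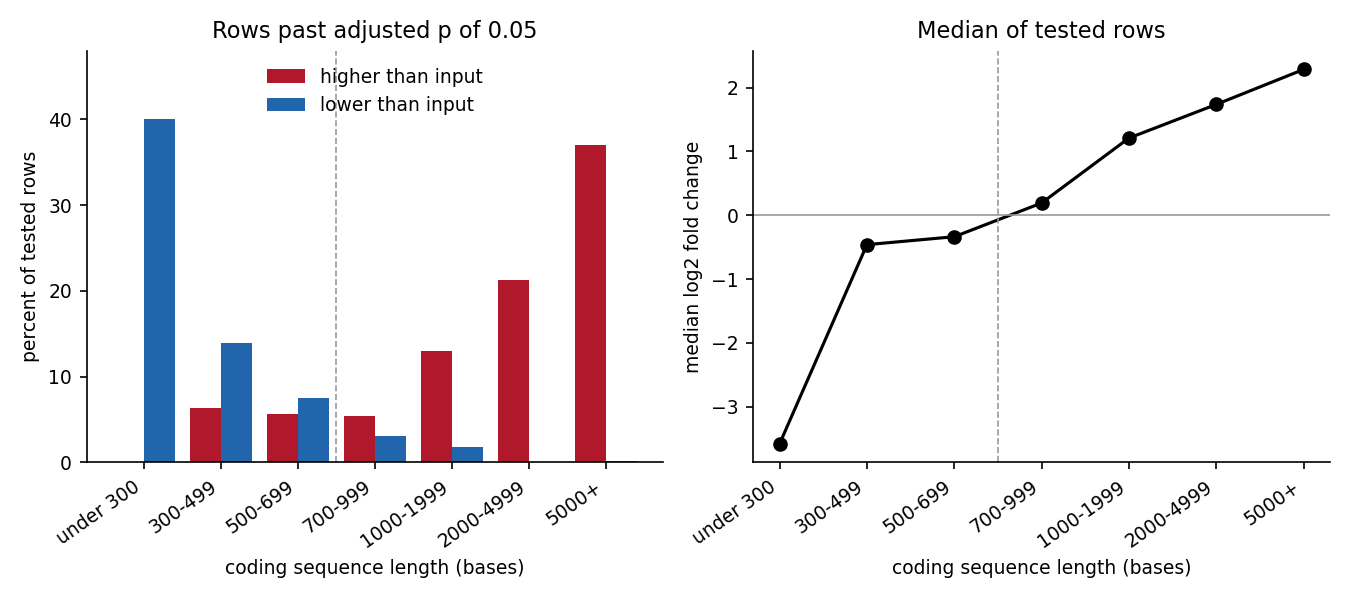
Left, percent of tested coding sequences past an adjusted p of 0.05 in edgeR, higher or lower with both isoforms than in the inputs, by CDS length (bars, from 0). Right, the median log2 fold change of the tested sequences in each bin; the dashed line marks 700 bases, and the medians run from −3.58 below 300 bases to 2.29 at 5000 bases or more.

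The main comparison asked which short coding sequences were recovered with Chtop above the crosslinked RNA of the same size. Only 253 of the 1690 (15.0%) had enough counts for the test, against 60.3% of those of 700 to 5000 bases and 84.4% of the longer ones. Of these 253, 14 passed as higher with both isoforms, which is 5.53% against 17.6% of all 6376 sequences tested. As lower, 29 passed, which is 11.5% against 1.41% of all. The groups did not overlap, higher, for 24 (9.49% against 33% of all), and, lower, for 20 (7.91% against 1.16%). A sequence at 0 in every input counts as higher here once each immunoprecipitate holds 1 count. The number so found therefore depends on the depth of the inputs, where 3 counts correspond to 31.7 to 38.0 CPM. The median log2 fold change was −0.51 for the 253 and 1.54 for all sequences, or −0.56 and 0.74 with sequences at 0 in a whole group set at their bound. Since 145 of the 253 met the count minimum through the immunoprecipitates alone and 13 through the inputs alone, these figures describe the tested sequences and not the 1690. All 14 higher calls were among those 145, and 9 of the 29 lower calls among those 13, so the count minimum bears on the direction of these calls. With no filter, the median over all 1690 was 1.89 against 2.16 for all 11601 counted sequences, and most of the 1690 were at 0 in every input. With library size as the only scaling the counts were 0 higher and 37 lower (0% and 14.6% against 2.78% and 2.29% of all), and the medians were −1.69 and 0.47. Leaving out any 1 of the 6 immunoprecipitates left 0 to 2 higher and 9 to 18 lower (at most 0.48%, and 2.2% to 4.5%). Of all sequences 2.80% to 4.21% then passed as higher and 0.280% to 0.509% as lower. Without input 2 there were 25 higher and 30 lower (6.17% and 7.41% against 31.1% and 1.59% of all), with medians of 5.15 and 6.04. Without input 3 there were 10 higher and 62 lower (2.01% and 12.45% against 12.6% and 2.25% of all).

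All 14 that passed as higher were at 0 in every input. Their folds are therefore lower bounds against 3 counts per input, and they hold on the TMM scale alone. TMM factors were 1.20 to 2.47 in the inputs and 0.698 to 0.792 in the immunoprecipitates, so plain library sizes would give smaller bounds. With library size as the only scaling, 0 of the 14 passed. Cbx5, which encodes the heterochromatin protein HP1 alpha, led them (573 bases; gene at chr15:103191546-103239904 in GRCm38.p6). It had 51, 44 and 76 CDS counts with exon 5 and 40, 133 and 208 without, at 119 ± 10.2 and 213 ± 76.0 CPM, and 0 in each input. Every immunoprecipitate thus stood above every input, and the mean of the 6 was at least 4.81-fold higher (edgeR adjusted p = 0.0176). Its 3′ UTR was well counted in the inputs, with 433 counts against 987 in the immunoprecipitates (log2 fold change −1.57, adjusted p = 0.095).

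Tex13b, an X-linked testis-expressed gene, had 101, 58 and 70 counts with exon 5 and 49, 61 and 34 without (558 bases; chrX:140808307-140813433; at least 4-fold, edgeR adjusted p = 0.0230). Rhob, a small GTPase of endosomes, had 15, 68 and 79 counts, and 56, 45 and 93 (588 bases; chr12:8497661-8500009; at least 3.41-fold, adjusted p = 0.0250). Nopchap1, which encodes a chaperone of box C/D snoRNP assembly and is named D10Wsu102e in the length table, had 46, 70 and 50 counts, and 25, 58 and 105 (at least 3.33-fold, adjusted p = 0.0229). In these sequences no library of either isoform was at 0, and both isoforms covered overlapping ranges of CPM.

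The others with bounds above 2 fell into several roles. They were 9430015G10Rik at 3.10-fold, the adenine salvage enzyme gene Aprt at 2.85-fold, the small Maf transcription factor gene Mafg at 2.63-fold and the neuronal calcium sensor gene Hpca at 2.55-fold. The immediate-early gene Ier2 stood at 2.5-fold, the ribosomal protein gene Rpl10a at 2.37-fold, Tmem250-ps at 2.12-fold and a row of 423 bases named Ndor1 at 2.10-fold. H4c14, a histone H4 gene, and Gm50367 had bounds of 1.88 and 1.72. Adjusted p-values of these 10 lay between 0.0261 and 0.0457 in edgeR. Gm50367 held the same counts as Antkmt in each immunoprecipitate, 35, 28, 41, 18, 13 and 43, while Antkmt had 7 counts in input 2, so reads of the pair cannot be told apart by these counts. Mafg rested unevenly on libraries, with 84 of its counts in replicate 1 with exon 5 and 139 in replicate 3 without, against 6 to 46 in the rest. Cbx5 passed in 13 of 16 other settings, Rhob in 10, and the other 12 in 4 to 9.

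**Figure D3:**
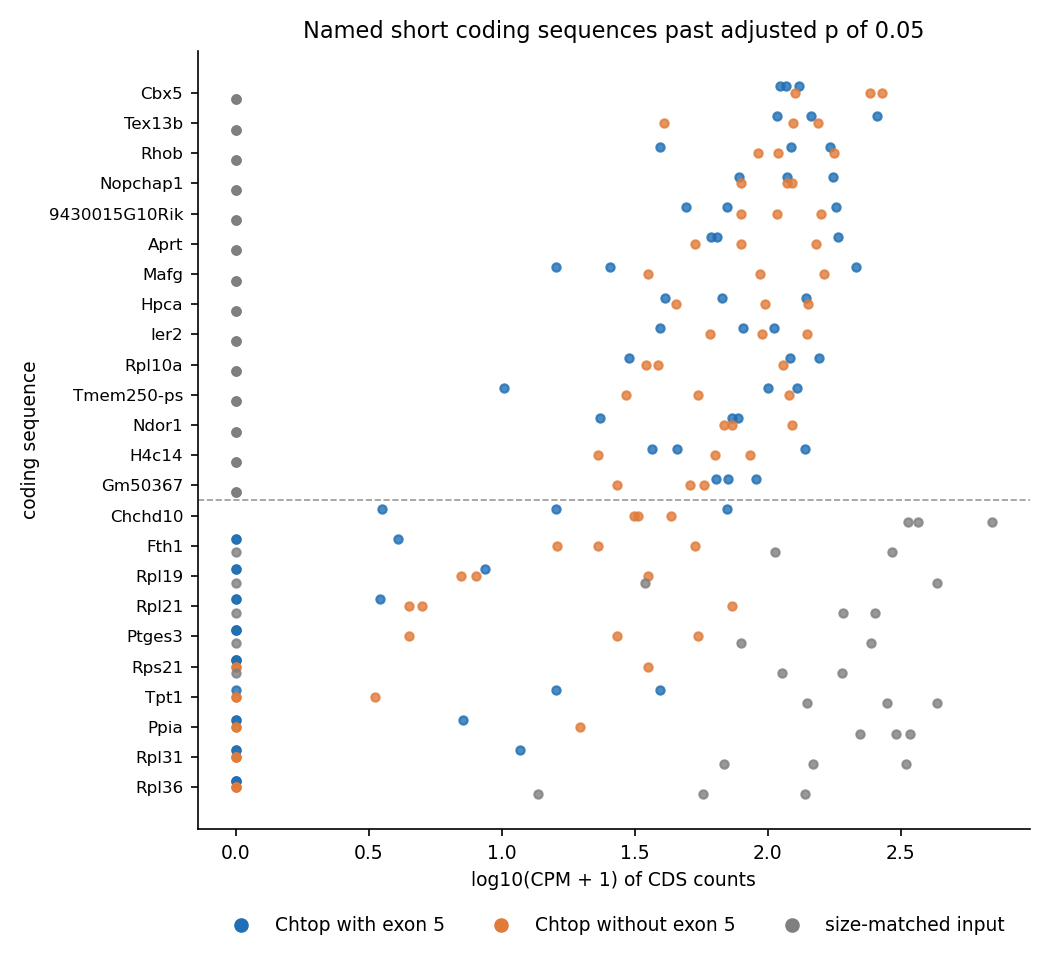
CDS level, as log10(CPM + 1), of 24 named short coding sequences past an adjusted p of 0.05 for both isoforms against input, with 1 point per library and colours for the 3 groups. The 14 above the dashed line have every input at 0; the 10 below it reach their highest values in the inputs.

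Of the 29 that passed as lower, 11 had a symbol, and 6 of those encode ribosomal proteins. Rpl31 of the large subunit (416 bases; chr1:39367851-39371911) had 0, 0 and 7 counts with exon 5, 0 in each library without, and 14, 6 and 26 in the inputs. Its level was 1.79 ± 4.39 CPM over the 6 immunoprecipitates and 182 ± 134 in the inputs (log2 fold change −7.25, SE 1.42, edgeR adjusted p = 0.0130), and it passed in 16 of 16 other settings. Rpl36 (315 bases; chr17:56610094-56614246) had no count in any immunoprecipitate and 13, 5 and 1 in the inputs, so it was at least 10.6-fold lower (adjusted p = 0.0200).

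Rpl19, Rpl21 and Rps21 passed at log2 fold changes of −4.58, −4.80 and −5.71, but input 3 was at 0 for each of them, so their groups overlapped. They passed in 6 of 15, 7 of 16 and 6 of 15 other settings, and the log2 fold change of Rpl19 was −1.31 with an edgeR adjusted p of 0.673 without input 1. Of Rpl19, 41 of the 44 input counts were in input 1.

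The other 5 named sequences serve different roles. Tpt1, the translationally controlled tumour protein gene (516 bases; chr14:75845256-75848303), had 0, 6 and 25 counts with exon 5, 0, 0 and 2 without, and 41, 25 and 11 in the inputs. It stood at 9.30 ± 15.4 against 284 ± 147 CPM (log2 fold change −5.83, SE 1.19, edgeR adjusted p = 0.0130), and it also passed in 16 of 16 other settings. Ppia, cyclophilin A (542 bases; chr11:6415867-6419817), had 20 counts over 6 immunoprecipitates and 21, 27 and 27 in the inputs, at 4.14 ± 7.54 against 289 ± 61.6 CPM (−6.04, SE 1.29, adjusted p = 0.0139). Chchd10, a protein of the mitochondrial intermembrane space (414 bases; chr10:75933130-75937750), had 1, 6 and 45, then 10, 21 and 26, and 66, 30 and 29 counts (−3.86, SE 0.91, adjusted p = 0.0196). For these 3 every immunoprecipitate lay below every input.

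The ferritin heavy chain gene Fth1 had 0, 0 and 2 counts with exon 5, 7, 26 and 13 without, and 10, 26 and 0 in the inputs (log2 fold change −4.29, SE 1.28, edgeR adjusted p = 0.0361). The Hsp90 co-chaperone gene Ptges3 had 0 in each library with exon 5, 17, 13 and 3 without, and 23, 7 and 0 in the inputs (−5.15, SE 1.45, adjusted p = 0.0337). Both were at 0 in input 3, so their groups overlapped. Fth1 lost its call without input 2, and both lost it with any 1 immunoprecipitate left out.

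Gene lists, matched by symbol and so covering named sequences alone, are given by counts, medians and summed levels beside those of all sequences. Of 36 short coding sequences for cytosolic ribosomal proteins, 18 were tested, of which 6 passed as lower and 1, Rpl10a, as higher in edgeR. Their median log2 fold change was −2.70, against 1.54 for all sequences tested, and 17 of the 18 lay below 0. Summed over the 36, the level was 477, 833 and 417 CPM with exon 5 and 731, 620 and 983 without. In the inputs it was 5522, 4301 and 1534 CPM, so every immunoprecipitate lay below every input. As a plain share of CDS counts, free of the scaling, the list took 0.0486% on average with Chtop and 0.601% in the inputs. Leaving out any 1 immunoprecipitate left 1 or 2 passing as lower, without input 1 there were 3, and without input 3 there were 13. Rps15 of the small subunit was the highest of the list with Chtop and rested on 1 library, with 413 counts in replicate 3 without exon 5 and 5 to 33 in the other immunoprecipitates, against 47, 39 and 0 in the inputs.

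Other lists of housekeeping proteins had few tested members and lower summed levels with Chtop. The 9 translation factor sequences, which include Tpt1 in this list, summed to 94.4 to 284 CPM in the immunoprecipitates and 449 to 1281 in the inputs. The cap-binding protein gene Eif4e held much of the input sum through input 3, with 6, 0 and 76 input counts, and did not pass (edgeR adjusted p = 0.149). The 16 sequences of actin, tubulin and calcium regulators summed to 104 to 290 against 730 to 862 CPM; 4 were tested, 0 passed and all 4 lay below 0. Among them Stmn2, a neuronal microtubule destabilizer, had 93 counts over the immunoprecipitates and 33, 26 and 0 in the inputs (adjusted p = 0.108).

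Ranges without overlap, all lower with Chtop, were also seen for 4 smaller sums. They were secretory pathway and SNARE genes (18 sequences, 40.8 to 189 against 292 to 977 CPM) and mitochondrial import and inner membrane genes (8 sequences, 10.2 to 90.7 against 368 to 697). Redox enzymes (8 sequences) ran from 49.2 to 119 against 306 to 584 CPM, and Sm, LSm and small spliceosome proteins (12 sequences) from 33.8 to 97.7 against 106 to 270. In these 4 lists 3 sequences were tested in all, and Chchd10 of the import list was the 1 that passed, as lower. In inputs 1 and 3 the import sum was that of Chchd10 alone. At 0 in every input were 10 of the 18, 5 of the 8, 3 of the 8 and 9 of the 12, and 0 of the 12 spliceosome sequences could be tested.

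Histones differed from those lists. The 18 short histone sequences summed to 1583, 1654 and 1186 CPM with exon 5, 1657, 1592 and 1550 without, and 1014, 1134 and 698 in the inputs, so every immunoprecipitate lay above every input on the TMM scale. As a plain share of CDS counts the order turned, with 0.111% on average with Chtop and 0.155% in the inputs. Of 16 tested, H4c14 passed as higher and 0 as lower, and the median log2 fold change of 1.19 was below the 1.54 of all sequences. With library size alone it was 0.12 against 0.47, and 0 histone sequences passed. Without input 2, the median was 7.20 and 7 of 16 passed as higher, with 10 of the 16 at 0 in both inputs that were left. In that setting the median of all sequences was 6.04 and 31.1% of all passed as higher, so the rise was not particular to histones. Leaving out any 1 immunoprecipitate left 0 passing.

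Linker histones were prominent among the named short sequences. H1f0, the linker histone of differentiated cells (582 bases; chr15:79028212-79030504), had 76, 105 and 82 counts with exon 5, 102, 81 and 322 without, and 59, 22 and 0 in the inputs, at 241 ± 96.5 against 290 ± 314 CPM. Its groups overlapped (edgeR adjusted p = 0.861). H1f4 (657 bases) had 42, 84 and 72, then 35, 105 and 321 counts, and 0, 1 and 15 in the inputs (adjusted p = 0.400). H1f3 and H1f5 also stood among the 10 highest named sequences with Chtop, at 156 ± 32.5 and 126 ± 41.2 CPM, and neither passed (adjusted p = 0.299 and 0.705). Replication-dependent histone genes are near copies of each other. Counts of H4c17 and H4c18 were close to identical, so single H4 rows are uncertain.

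Small GTPases, which switch between GTP- and GDP-bound states to steer traffic and the cytoskeleton, lay on both sides of 0. Of 42 sequences, 10 were tested, Rhob passed as higher and 0 as lower, and 5 lay on either side of 0. Their median log2 fold change was −0.28, or −0.63 at bounds, against 1.54 and 0.74 for all sequences. Summed levels of 534 to 1090 CPM with Chtop overlapped the 786 to 1426 CPM of the inputs. The cell polarity gene Cdc42 had 17, 79 and 0 counts with exon 5, 11, 14 and 64 without, and 8, 5 and 0 in the inputs (edgeR adjusted p = 0.884). Of 15 small transcription regulators, 6 were tested, and Mafg and Ier2 passed as higher. Hand2 was the highest of these at 103, 65 and 170 counts with exon 5 and 43, 61 and 64 without, against 11, 3 and 11 in the inputs, and did not pass (adjusted p = 0.589).

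Several lists close to the function of Chtop could hardly be measured in short coding sequences. The 4 short sequences of mRNA export genes, Cetn3, Eny2, Ncbp2 and Sarnp, held 53 counts in the immunoprecipitates and 0 in the inputs, and none was tested. Of 3 SR and other small RNA-binding protein sequences, 2 were tested and 0 passed. Srsf2, a splicing factor with arginine-serine repeats (663 bases; chr11:116849897-116853675), had 66, 85 and 118 counts with exon 5, 130, 86 and 164 without, and 0, 28 and 0 in the inputs (edgeR adjusted p = 0.575). Mitochondrial ribosomal proteins had 1 of 23 tested, oxidative phosphorylation 3 of 15, ubiquitin-related genes 2 of 19 and proteasome subunits 0 of 2, with 0 passing in any of these lists. Per base, the highest named short sequences with Chtop were H1f0 at 413 CPM per kb, Srsf2 at 336, the SAM-domain gene Samd5 at 323, Cbx5 at 289 and H1f4 at 285.

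**Figure D4:**
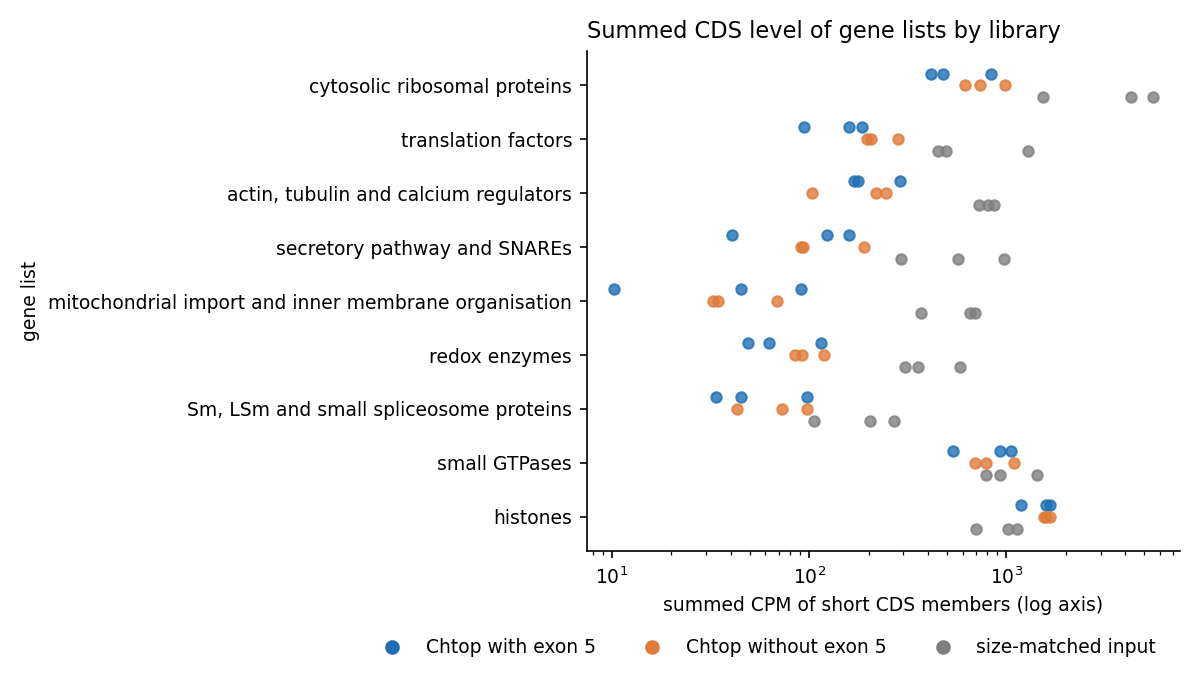
Summed CPM of the short coding sequences of 9 gene lists (x axis, log scale), with 1 point per library and colours for the 3 groups. In the 7 upper lists every input lies above every immunoprecipitate, small GTPases overlap, and histones lie higher in the immunoprecipitates on this TMM scale although not as a plain share of CDS counts (0.111% against 0.155%).

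Each isoform alone gave fewer calls against the same inputs. With exon 5, 12 of the 253 passed as higher (4.74% against 13.9% of all tested) and 23 as lower (9.09% against 0.878%). Without exon 5, 9 passed as higher (3.56% against 11.8%) and 10 as lower (3.95% against 0.439%). Groups did not overlap, higher, for 34 with exon 5 (13.4% against 38.4% of all) and 40 without (15.8% against 42.3%), and, lower, for 22 in each (8.7% against 1.52% and 1.43%). Both comparisons share the 3 inputs, and a sequence at 0 in all of them counts as not overlapping once each immunoprecipitate compared holds 1 count. Sar1b, a GTPase of COPII coats, and Snx10, a sorting nexin, passed as lower with exon 5 alone. Sar1b had 0 counts in each library with exon 5, 0, 26 and 15 without, and 9, 10 and 0 in the inputs (edgeR adjusted p with exon 5 against input = 0.0494). Snx10 had 0 in each with exon 5, 9, 43 and 46 without, and 0, 18 and 0 in the inputs, so its call rested on input 2 (adjusted p = 0.0472). The difference between the isoforms did not pass for either. Fitted on the 6 libraries of each comparison alone, with exon 5 gave 0 higher and 0 lower among 78 short sequences tested. Among all 3895 sequences of that fit, 0 passed as higher and 1 as lower. Without exon 5 the fit gave 0 higher and 1 lower of 76 short ones, and 3 and 3 of all 3636.

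Between the isoforms 0 short coding sequences passed in either direction in edgeR (0% of the 6376 tested as higher and 0% as lower). At an unadjusted p below 0.05 there were 21 of the 253 short ones and 82 of all 6376 tested, a larger share of the short ones than of all. DESeq2 called 1 as lower with exon 5 than without. The groups did not overlap, higher with exon 5, for 12 of 253 (4.74% against 6.46% of all), and, lower, for 17 (6.72% against 6.96%). The median log2 fold change was −0.07, against −0.02 for all. Cbx5 stood at 119 ± 10.2 CPM with exon 5 and 213 ± 76.0 without, H1f5 at 161 ± 14.1 and 90.4 ± 18.1, and Hand2 at 229 ± 57.4 and 111 ± 32.1 (SD, n = 3 each; adjusted p = 1 for each in edgeR).

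The authors' deposited table gives a CDS log2 fold change of the isoform with exon 5 over that without for 76 of these sequences. Of the 76, 8 lay above 1 in the authors' deposited table (10.1% of its 4532 genes did) and 22 below −1 (11.2% of its genes). The lowest value in the authors' deposited table was −6.86 for Eif1ad, which had 0 counts in each library with exon 5 and 10, 13 and 70 without. The highest in the authors' deposited table was 3.32 for the GTPase gene Rap1a.

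Counts of many short sequences came from a single library. Of the 423 with 50 or more counts, 20 (4.73%) had over 90% of them in 1 library, against 39 of 6568 (0.594%) at 700 to 5000 bases and 2 of 517 (0.387%) above 5000 bases. Over 50% in 1 library was seen for 35.9%, 15.0% and 3.29%. Ubald1 had 336 of 341 counts in replicate 1 with exon 5, 1700028K03Rik all 266 there, and Gm5622 all 120 in replicate 2 with exon 5. Mpc2, a subunit of the mitochondrial pyruvate carrier, had all 70 in replicate 3 without exon 5, the deepest library, which was the library of 9 of the 20. Ubald1 entered the 10 highest mean levels of named sequences with Chtop, 144 ± 350 CPM, through that library alone. The median was 22 counts per short sequence over the 9 libraries, against 119 and 1446.5 in the longer classes, so depth differs between the classes along with length.

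The sparse counts set a limit on any comparison with the inputs. Of the 1690, 1101 were at 0 in all 3 inputs, where 3 counts correspond to 31.7 to 38.0 CPM, and 64 were at 0 in all 6 immunoprecipitates. A count in every immunoprecipitate was seen for 128 and in all 9 libraries for 11. Sequences counted only with exon 5 numbered 172 and only without 392, and the libraries without exon 5 included the deepest one. Rpl38, at 210 bases the shortest named one with 50 or more counts, had 18 counts in 1 immunoprecipitate and 37 in 1 input. Of the 891 with 20 or more counts, 35 shared all 9 values with another row of the table, such as Ube2c with Polr2f at 23 counts each, so such rows cannot be told apart either.

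The 3′ UTRs of the same genes were counted in the same libraries. A 3′ UTR length was given for 1423 of the 1690. In these the CDS took 30.0% ± 0.538 of the gene's counts with exon 5, 32.6% ± 0.382 without and 25.7% ± 3.83 in the inputs (SD, n = 3 each), with every immunoprecipitate above every input. Per base the CDS held 1.55 times the counts of the 3′ UTR with Chtop and 1.14 times in the inputs. For genes of 700 to 5000 bases these ratios were 1.60 and 0.759, and above 5000 bases 1.57 and 0.916. Between isoforms the short-class ratios did not overlap, at 1.38 to 1.54 with exon 5 and 1.64 to 1.65 without. They overlapped in both longer classes, and the difference was not tested. Averaged over both isoforms, the CDS of short genes held about as many counts per 3′ UTR count and base as that of longer genes. In inputs 1 and 2 it held more than either longer class, at 1.23 and 1.30. In input 3, at 0.875, it lay between the 0.699 and 0.911 of the longer classes.

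In the 3′ UTR test 417 of the short-CDS genes had enough counts. As higher, 27 passed (6.47% against 14.5% of the 4984 tested), and as lower, 14 (3.36% against 1.34%). Groups did not overlap, higher, for 55 (13.2% against 26.5%), and, lower, for 22 (5.28% against 2.13%), with the same dependence on input depth as for the CDS. The median log2 fold change was 0.05, against 1.34 for all, or 0.95 and 1.76 with no filter and 1.63 and 5.27 without input 2. The 4 highest were Bbc3, which encodes a pro-apoptotic BH3-only protein, the ubiquitin-conjugating enzyme gene Ube2b, the zinc finger gene Zfp41 and Arfrp1, a GTPase gene of the Golgi. They had 524, 370, 339 and 326 counts with Chtop and 0 in the inputs (edgeR adjusted p = 0.0179, 0.0170, 0.0166 and 0.0195). At 0 in every input, they met the count minimum through the immunoprecipitates alone, and most of the 27 were likewise at 0 there. In the inputs 3 counts correspond to 37.9 to 46.3 CPM of the 3′ UTR table, so the size of these differences is not known. Lower were the heterochromatin gene Cbx1 (log2 fold change −4.96, adjusted p = 0.0195), B2m, the light chain of MHC class I (−4.87, adjusted p = 0.0293), and the synaptic vesicle SNARE gene Vamp2 (−4.16, adjusted p = 0.0410).

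Both parts were tested in 135 genes, and in 110 of these neither passed. 9430015G10Rik alone was higher in both, with 331 CDS and 2502 3′ UTR counts with Chtop against 0 and 10 in the inputs. Nopchap1 was higher in the CDS and lower in the 3′ UTR, where the inputs held 2540 counts and the immunoprecipitates 2366 (log2 fold change −2.82, SE 0.43, edgeR adjusted p = 0.0019). The length table gives that 3′ UTR 122586 bases, against a median of 934 in the short class. Another 2 genes, without a symbol, were lower in both. The CDS alone passed in 14, and the 3′ UTR alone in 7, of which 6 were higher, among them Bbc3, Bax, Ppif and Commd4. The difference between the parts was not itself tested.

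**Figure D5:**
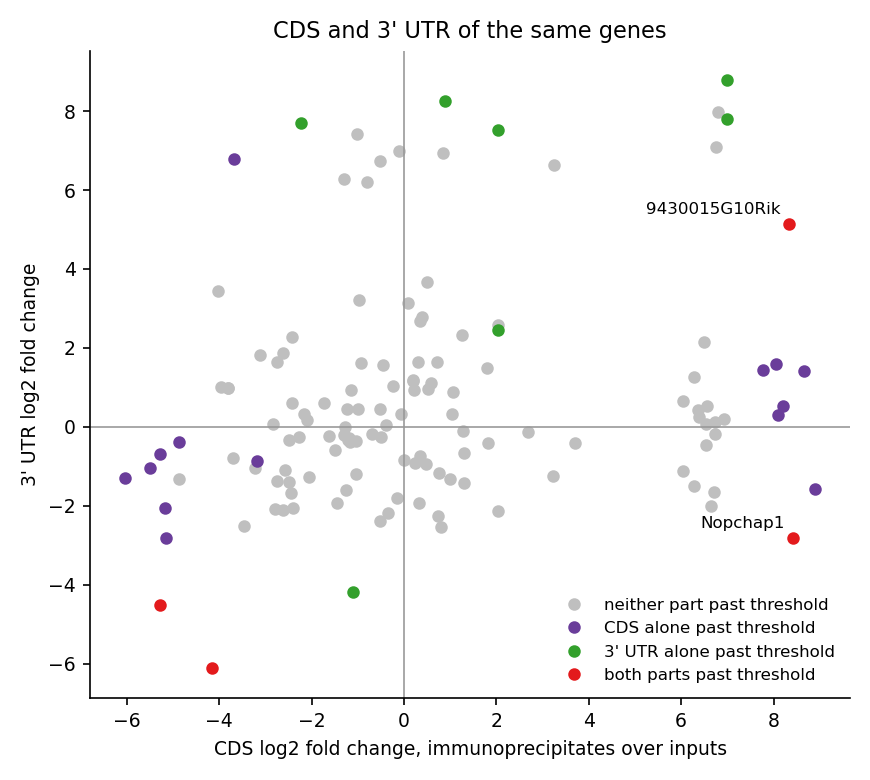
Log2 fold change of both isoforms over input in the 3′ UTR (y axis) against that in the CDS (x axis) for the 135 short-CDS genes tested in both parts, coloured by which part passed an adjusted p of 0.05 in edgeR. Values above 6 belong to parts at 0 in every input, where the size depends on the prior count of the fit; the named pair, 9430015G10Rik and Nopchap1, passed in both parts, in the same and in opposite directions.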

How the data were processed

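Deposited were tables of raw counts, 1 each for CDS, 3′ UTR, 5′ UTR and their sum, and a table of part lengths in bases, per the file headers. The authors' deposited comparison table gives log2 fold changes between isoforms. The submitters' processing notes name mm10, TopHat2 and DESeq2. How reads were filtered, assigned to strands and collapsed by primer bases was not found in the labels, so intervals cover counting error only. The tables hold 27 more columns of per-sample values, which were not used.

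Coding sequences under 700 bases with 1 or more counts were taken. All CDS rows were fitted together in edgeR 4.0.16 (R 4.3.3; TMM, filterByExpr with minimum count 10 and minimum total 15, robust quasi-likelihood F-test, 9 libraries, no covariate), with Benjamini-Hochberg adjustment over all 6376 rows tested and a threshold of 0.05. The 3′ UTR table was fitted likewise. The main edgeR fit alone was run on simulated counts with known fold changes, and the alternatives and summaries were not. DESeq2 1.42.0, other scalings and filters, a replicate block and leaving out each library were alternatives. Where a group was at 0, folds were bounded with 3 counts per library on the TMM scale.

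Named are, per comparison, the 10 highest and 10 lowest sequences past the threshold, the 10 highest in the immunoprecipitates and 5 in the inputs by CPM and the 5 highest per base (100 or more counts), members without a symbol aside, the 3 on each side of 700 bases, the shortest with 50 or more counts, and per list the 2 with most counts and any past the threshold. Sequences named for counts in a single library, identical rows, 3′ UTR calls and the authors' values were chosen after their values were seen. The members and lists were chosen with earlier results of these data known, and list patterns for histones, GTPases and Ier genes were corrected after the tables' symbols were seen. The values of 1 named sequence are not reported here. Gene positions are those of the RefSeq table for GRCm38.p6, matched by symbol for 812 genes; its sequences hold no coding sequence, so none is printed. Input numbers follow the titles, matched by primer, since the column names number inputs 1 and 2 the other way round. Same-numbered libraries did not deviate together (r of −0.0192 to 0.029), so replicate numbers were not taken as pairs.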

Additional observations from a re-analysis of the deposited data

How the results depend on the processing

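Shares of CDS counts moved with the length limit: below 500 bases they were 0.522% with exon 5, 0.555% without and 3.17% in the inputs, and below 900 bases 2.70%, 2.85% and 11.2%. With named rows alone, added after seeing the data, they were 0.924%, 0.968% and 2.89%. Leaving out 1 library gave 1.36% to 1.53%, 1.49% to 1.61% and 6.96% to 8.26%. Rows with a length only and leaving out the 10 most counted rows moved each by less than 1 SD. The inputs were above both isoforms in each of these.

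Counts of calls depended on most settings, and the cause was not tested. For both isoforms against input (14 higher, 29 lower), library size alone gave 0 higher, no filter 122 lower, DESeq2 125 lower, and the replicate block 4 higher and 15 lower (4 and 16 with the inputs numbered as in the column names, added after seeing the data). Leaving out 1 library gave 0 to 25 higher and 9 to 62 lower. With exon 5 (12 and 23), library size alone gave 0 and 6, no filter 50 lower, DESeq2 95 lower, either block 0 and 6, only the groups compared 0 and 0, and leaving out 1 library 0 to 22 and 0 to 37. Without exon 5 (9 and 10), library size alone gave 0 and 6, scaling from gene totals 15 higher, no filter 31 lower, DESeq2 62 lower, the block 1 and 6 (1 higher with the other numbering), only the groups compared 0 and 1, and leaving out 1 library 0 to 24 and 0 to 18. Between isoforms, DESeq2 called 1 lower, and every other setting gave 0 in both directions.

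For the 3′ UTR (27 and 14), library size alone gave 15 and 26, scaling from gene totals 14 higher, no filter 51 lower, the stricter filter 9 lower, DESeq2 52 and 67, the block 16 and 9 (15 and 9 with the other numbering), and leaving out 1 library 6 to 51 and 8 to 31. In each setting run on the CDS of both isoforms against input, the share of tested short sequences passing as higher was below that of all sequences and the share passing as lower was above it. Depth limits the inputs most, with 115 to 428 short sequences counted in each.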
